A study of Mus musculus with 6 samples.

Results

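Ephrins and Eph receptors are described here across the cells of the mouse bladder mucosa, as 4 ligand genes (Efna1, Efna5, Efnb1 and Efnb2) and 6 receptor genes (Epha1, Epha2, Epha4, Ephb3, Ephb4 and Ephb6). These 10 genes were fixed as a list by name, were found by their Ensembl identifiers, and are among 14356 genes listed in all 6 deposited tables once mitochondrial and ribosomal genes are set aside. The tables hold counts of unique molecular identifiers (UMIs, tags that mark each captured mRNA molecule) from droplet-based 3' single-cell sequencing. All mice were wild type C57BL/6 and 8 weeks old. The 2 healthy libraries came from mice without cyclophosphamide (CPP), a drug whose excreted metabolites injure the urothelium. The 2 acute libraries were made 48 hours after CPP, and the 2 chronic libraries after 4 rounds of CPP over 11 days. The 2 libraries of a condition are described as biological replications, and how the mice of a condition were divided between them is not given in the sources used here. Every condition included males and females, according to the methods of the study.

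Eph receptors are receptor tyrosine kinases whose ligands, the ephrins, are themselves held on the surface of the neighbouring cell, so that signalling needs contact between cells. A-type ephrins are tied to the membrane by a lipid anchor and bind mainly EphA receptors. B-type ephrins span the membrane, bind mainly EphB receptors, and can signal backwards into the cell that carries them. The family is known for sorting cells into layers and compartments, for guiding axons and vessels, and, in epithelia, for acting at cell junctions. The urothelium is such a layered epithelium, with basal cells on the basement membrane, intermediate cells above them and superficial umbrella cells at the lumen.

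The 10 genes lie on 9 chromosomes, with Epha1 and Ephb6 both on chromosome 6 (GENCODE M21 annotation, GRCm38). The ligand genes are Efna1 (chr3:89271733-89281142, minus strand), Efna5 (chr17:62604184-62881317, minus), Efnb1 (chrX:99136130-99148991, plus) and Efnb2 (chr8:8617434-8661242, minus). The EphA genes are Epha1 (chr6:42358487-42373268, minus), Epha2 (chr4:141301240-141329384, plus) and Epha4 (chr1:77367185-77515088, minus), and the EphB genes are Ephb3 (chr16:21204755-21223305, plus), Ephb4 (chr5:137350109-137378669, plus) and Ephb6 (chr6:41605482-41620509, plus). Counts refer to whole genes and mostly to reads near their 3' ends. RefSeq upstream windows of GRCm38.p6 were found for all 10, as 11 windows of 250 bases because Efna1 has a pair of start sites. The windows of 4 genes are shown because these genes differed most plainly in where they were found, as described below. Epha2 was lower in superficial than in intermediate cells, Epha1 was higher there, and Efnb1 was higher in basal than in intermediate cells. Ephb4 was higher in mesenchymal and endothelial cells than in urothelial cells. Sequences run 5′ to 3′ on the gene's own strand and end at the base before the start, and capitals mark matches to any of 5 motifs searched on both strands.
Epha2, chr4:141300971-141301220, plus strand: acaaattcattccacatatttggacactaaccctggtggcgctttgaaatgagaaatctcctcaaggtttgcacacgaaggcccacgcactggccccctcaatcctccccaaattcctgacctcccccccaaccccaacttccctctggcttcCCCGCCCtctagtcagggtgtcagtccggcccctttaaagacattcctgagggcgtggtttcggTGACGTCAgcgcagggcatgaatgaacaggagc
Epha1, chr6:42373269-42373518, minus strand: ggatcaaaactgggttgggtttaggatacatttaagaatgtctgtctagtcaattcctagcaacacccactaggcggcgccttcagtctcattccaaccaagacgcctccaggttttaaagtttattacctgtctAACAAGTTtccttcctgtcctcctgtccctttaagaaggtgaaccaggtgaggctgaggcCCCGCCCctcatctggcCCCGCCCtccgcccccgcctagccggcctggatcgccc
Efnb1, chrX:99135811-99136060, plus strand: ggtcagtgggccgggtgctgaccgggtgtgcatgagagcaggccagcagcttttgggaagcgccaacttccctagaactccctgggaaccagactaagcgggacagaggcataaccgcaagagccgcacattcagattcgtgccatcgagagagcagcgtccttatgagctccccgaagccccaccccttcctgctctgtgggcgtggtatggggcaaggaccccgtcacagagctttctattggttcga
Ephb4, chr5:137349859-137350108, plus strand: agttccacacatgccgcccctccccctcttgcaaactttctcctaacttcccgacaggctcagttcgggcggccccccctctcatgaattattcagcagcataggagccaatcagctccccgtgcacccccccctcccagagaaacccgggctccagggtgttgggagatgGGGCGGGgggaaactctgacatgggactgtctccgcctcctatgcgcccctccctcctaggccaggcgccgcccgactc

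The motifs were the AP-1 site TGANTCA, the grainyhead-like site AACNNGTT, the GC box GGGCGGG, the TATA box TATAAA and the cyclic AMP response element TGACGTCA, and the 5 do not contain one another. A GC box was found in 9 of the 11 windows, against 23.4% of all 32851 windows of the same length, and the members' windows held 54.4% to 76.8% G and C, against a median of 52.4%. The cyclic AMP response element was found in the Epha2 window only, beginning 33 bases before the start, against 1.55% of all windows. The grainyhead-like site was found in the Epha1 window only, beginning 115 bases before the start, against 3.64% of all windows, and the TATA box in the Efnb2 window only, against 12.4%. No member's window held the AP-1 site, against 6.75% of all windows. These are matches of letters and were not tested as sites.

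The libraries held 54604109 to 111985678 UMIs, with a median of 5530 to 9138 UMIs per cell. Cells were clustered with the 10 genes and the rest of their family and pathway kept out of the features, and 49918 cells were kept after filters and removal of called doublets and of a doublet-rich cluster. Clusters were named by likeness to marker lists, and the names below stand for such likeness (urothelial-like, and so on). Pairs of libraries shared 36 to 229 cell barcodes, where random draws from the kit's set of barcodes would share 50.1 to 229.8. Acute library 2 held 4484 of the mesenchymal cells, against 168 to 1826 in the other libraries, and endothelial cells were few, with 25 to 328 per library after healthy library 2, with 15, was left out. Basal and intermediate cells were split by a score for basal and luminal genes, which is a range and not a type, with 3413 of 29053 such cells (11.7%) close to the boundary. The superficial class joined sub-cluster 10, led by Upk2, Txnip and Upk3a, and sub-cluster 4, led by Fam25c, Acer2 and S100a1. Sub-cluster 4 had no gene of the superficial marker list but 1 mural marker (Rgs5) among its 10 leading genes. The study, however, reports Acer2 as preferentially expressed in superficial cells. Tests are therefore also given for each sub-cluster, after the data had been seen. Uroplakins, the membrane plaque proteins of urothelial cells, were counted in every other class too, at 6.44% to 26.9% of their urothelial level in mesenchymal cells, 9.82% to 33.2% in endothelial cells and 15.5% to 32.8% in macrophages of the same library.

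Levels are CPM, the UMIs of a class in a library divided by the TMM-scaled total of all its UMIs. They count 3' ends without regard to gene length and are compared between cells and never between genes. Of the A-type ephrins, Efna1, a lipid-anchored ligand first known from endothelium and a partner of EphA2, was highest in endothelial cells. Its level there was 106 in healthy library 1, 56.3 and 144 in acute libraries 1 and 2, and 30.5 and 35.9 in chronic libraries 1 and 2, from 26, 15, 91, 3 and 5 UMIs. In urothelial cells Efna1 stood at 35.3 and 48.2 in the healthy, 33.1 and 32.6 in the acute and 56.1 and 32.5 in the chronic libraries. In mesenchymal cells it stood at 11.9 and 18.1, 6.21 and 12.8, and 19.1 and 19.2 in the same order, so that every mesenchymal value was under every urothelial value, while the endothelial and urothelial ranges overlapped.

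Efna5, a lipid-anchored ligand known for repelling growing axons, was found in urothelial and mesenchymal cells alike and was counted little in endothelial cells. In urothelial cells its level was 52.0 and 43.0 in the healthy, 55.5 and 36.7 in the acute and 29.0 and 36.1 in the chronic libraries. In mesenchymal cells it was 70.1 and 32.4, 74.5 and 29.96, and 40.5 and 72.2, so that the ranges overlapped. In endothelial cells only 8 UMIs of Efna5 were counted over 5 libraries, 6 of them in acute library 1, and both chronic libraries were at 0, where 3 counts would have been 30.5 and 21.6 CPM, near their urothelial levels. Acute library 1 stood at 22.5 CPM, or 40.6% of its urothelial level, so that the endothelial level is poorly known at this depth.

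Of the B-type ephrins, Efnb1, a transmembrane ligand known for forming sharp boundaries between tissues, was found in basal cells and fibroblasts at similar levels. It averaged 63.8 ± 9.60 (SD, n = 6) in basal cells and 55.8 ± 17.7 (SD, n = 6) in fibroblasts. It was lowest in macrophages, at 11.1 ± 5.68 (SD, n = 6), and in superficial cells, where it stood at 20.5 ± 3.91 (SD, n = 6), the level depended on the sub-cluster, as given below.

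Efnb2, the transmembrane partner of EphB4 and a marker of arteries in the vessel wall, was highest in urothelial cells, and varied widely between libraries. Its urothelial level was 139 and 66.2 in the healthy, 139.9 and 83.1 in the acute and 66.8 and 129 in the chronic libraries. Endothelial cells came next, at 61.0, 82.6, 55.3, 50.9 and 71.9 in healthy 1, acute 1, acute 2, chronic 1 and chronic 2. Mesenchymal cells had 29.9 and 19.1, 51.2 and 21.8, and 29.8 and 88.2, with the value of chronic library 2, from 168 cells and 55 UMIs, standing above the others and within the urothelial range.

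Of the EphA receptors, Epha1 and Epha2 were higher in urothelial than in mesenchymal cells. Epha1, the founding member of the family, had 40.1 and 47.6 in the healthy, 44.6 and 39.0 in the acute and 47.0 and 48.7 in the chronic urothelial sums, the narrowest spread of the 10 genes there. Mesenchymal cells had 4.27 and 9.95, 8.79 and 3.39, and 11.4 and 17.6, all below the urothelial values. Epha2, an epithelial receptor found at cell junctions, had 219 and 97.7, 181 and 58.8, and 108 and 121 in urothelial cells and 41.5 and 17.6, 37.2 and 8.59, and 32.0 and 59.4 in mesenchymal cells. Only the highest mesenchymal value of Epha2, that of chronic library 2, reached the lowest urothelial value, that of acute library 2. Endothelial cells had 44.8 of Epha2 in healthy 1, 86.4 and 56.9 in the acute and 50.9 and 107.8 in the chronic libraries, 20.4% to 96.7% of the urothelial level of the same library and above the share of the uroplakins in 5 of 5.

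Epha4, a receptor that binds ephrins of both types, was low in urothelial cells, at 7.98 ± 1.42 (SD, n = 6), and lower in mesenchymal cells, at 2.76 ± 1.89 (SD, n = 6). Its highest level was in endothelial cells, at 12.2, 30.04, 25.3, 10.2 and 14.4 in healthy 1, acute 1, acute 2, chronic 1 and chronic 2, from 3, 8, 16, 1 and 2 UMIs. The endothelial values of 4 of these libraries lay above all 6 urothelial values, and that of chronic 1, from 1 UMI, lay within them.

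Of the EphB receptors, Ephb3, known for keeping cells in place along the intestinal crypt, was found in both the urothelium and the mesenchyme. Urothelial cells had 61.6 and 33.4, 55.0 and 23.4, and 39.6 and 36.6 in the healthy, acute and chronic libraries, and mesenchymal cells 31.4 and 22.2, 32.1 and 24.2, and 20.2 and 19.2. The ranges overlapped, and within acute library 2 the mesenchymal value was the higher. Ephb4, the receptor of veins that pairs with ephrin-B2, ran the other way, with less in the epithelium than in the mesenchyme and the endothelium.

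Ephb4 had 9.22 and 7.18, 6.48 and 6.24, and 5.33 and 8.33 in urothelial cells, 30.1 and 15.3, 19.6 and 14.7, and 14.9 and 14.4 in mesenchymal cells, and 89.5, 33.8, 39.5, 50.9 and 21.6 in endothelial cells of the 5 libraries. The mesenchymal values all lay above the urothelial values, and in each of the 5 libraries the endothelial value lay above the mesenchymal. Ephb6, a family member whose kinase domain is inactive, was low everywhere. Apart from mural cells, which were kept in 2 libraries only, it was highest in basal cells, at 12.6 ± 2.99 (SD, n = 6), with 10.3 ± 2.10 in urothelial cells together and 3.90 ± 2.09 in mesenchymal cells (SD, n = 6).

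**Figure D1:**
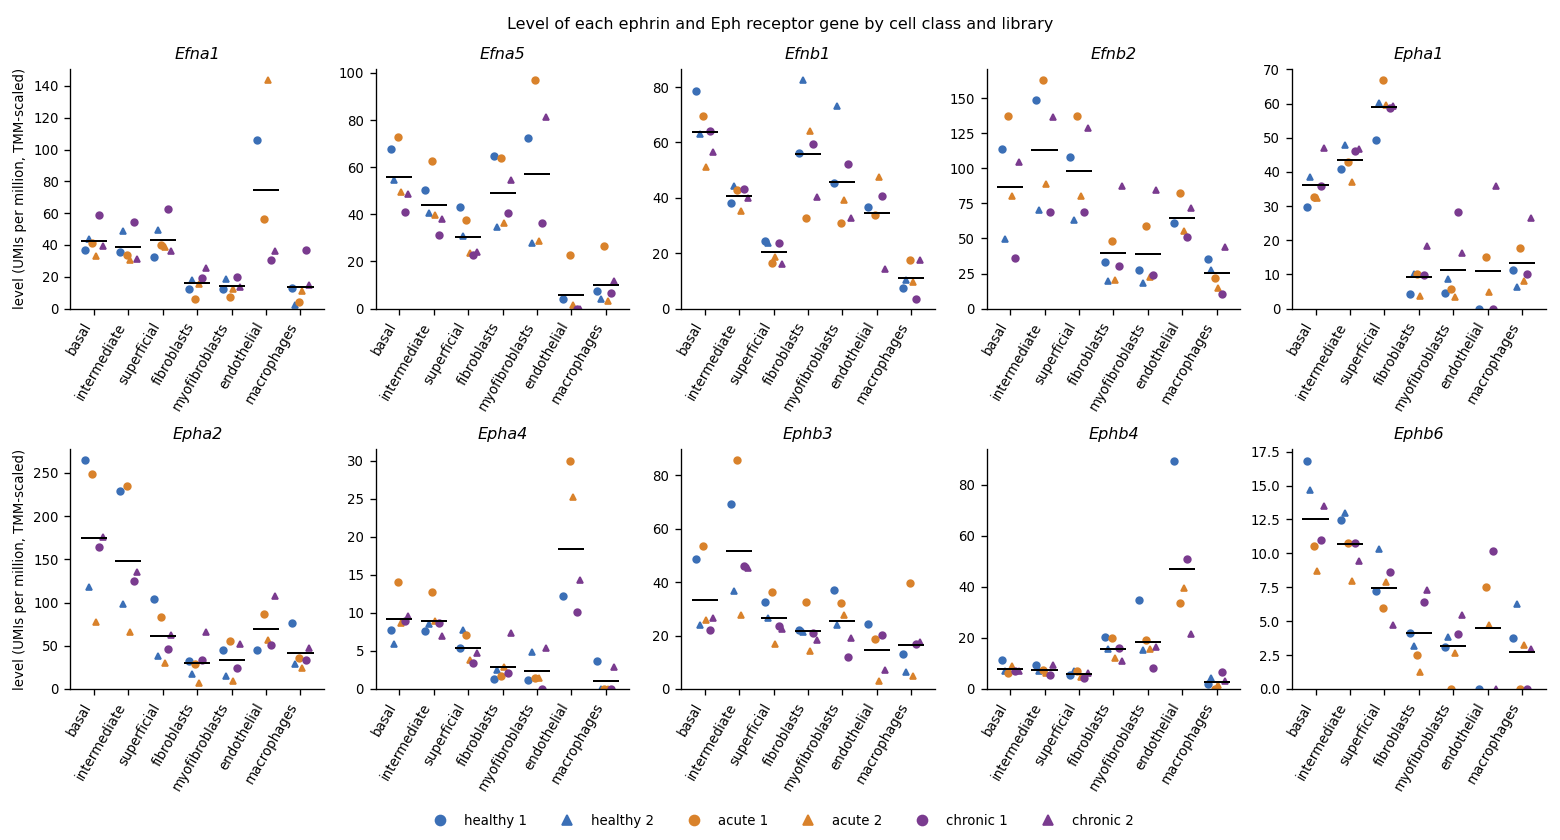
Level of each gene (vertical axis, CPM after TMM scaling, linear, starting at 0) in 7 cell classes, with 1 point per library and a bar at the mean. Epha1 has its 3 highest means in the urothelial layers, Ephb4 sits highest in endothelial cells, and Efna5 rests on 1 UMI or none in endothelial cells of 4 of 5 libraries.

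Where ligands and receptors are found was asked first between mesenchymal and urothelial cells of the same library. The mesenchyme was called lower for 7 genes and higher for Ephb4. Epha1 was 5.94-fold lower, at a log2 difference of -2.57 ± 0.24 (SE, adjusted p = 6.2e-06 in the quasi-likelihood test of edgeR, Benjamini-Hochberg adjusted across all genes tested, as for every adjusted p below), and Epha2 was 4.40-fold lower (-2.14 ± 0.21, adjusted p = 6.83e-06). Both were lower in mesenchymal cells of 6 of 6 libraries. Ephb4 was 2.61-fold higher (1.38 ± 0.14, adjusted p = 1.13e-05), in 6 of 6 libraries. Ephb6, Efnb2 and Efna1 were 3.004-fold, 2.88-fold and 2.79-fold lower, each in 6 of 6 libraries. The fold of Ephb6 rests on only 3 to 31 mesenchymal UMIs per library. Ephb3 was 1.56-fold lower in 5 of 6 (-0.64 ± 0.15, adjusted p = 0.00365). Epha4 was called lower too, but it rests on 4 to 27 mesenchymal UMIs per library. It passed the filter on low counts in neither fibroblasts nor myofibroblasts alone, so that no fold is given and its call is no support. Efna5 (0.27 ± 0.17, adjusted p = 0.189) and Efnb1 (0.35 ± 0.15, adjusted p = 0.0533) did not pass. The 8 of 10 members called stand against 69.8% of all genes tested in this comparison. Epha4 is among the 8, so that this count is no support for a difference of the family. The members' median log2 difference was -1.50 against -0.09 over all genes, and this contrast was not tested.

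**Figure D2:**
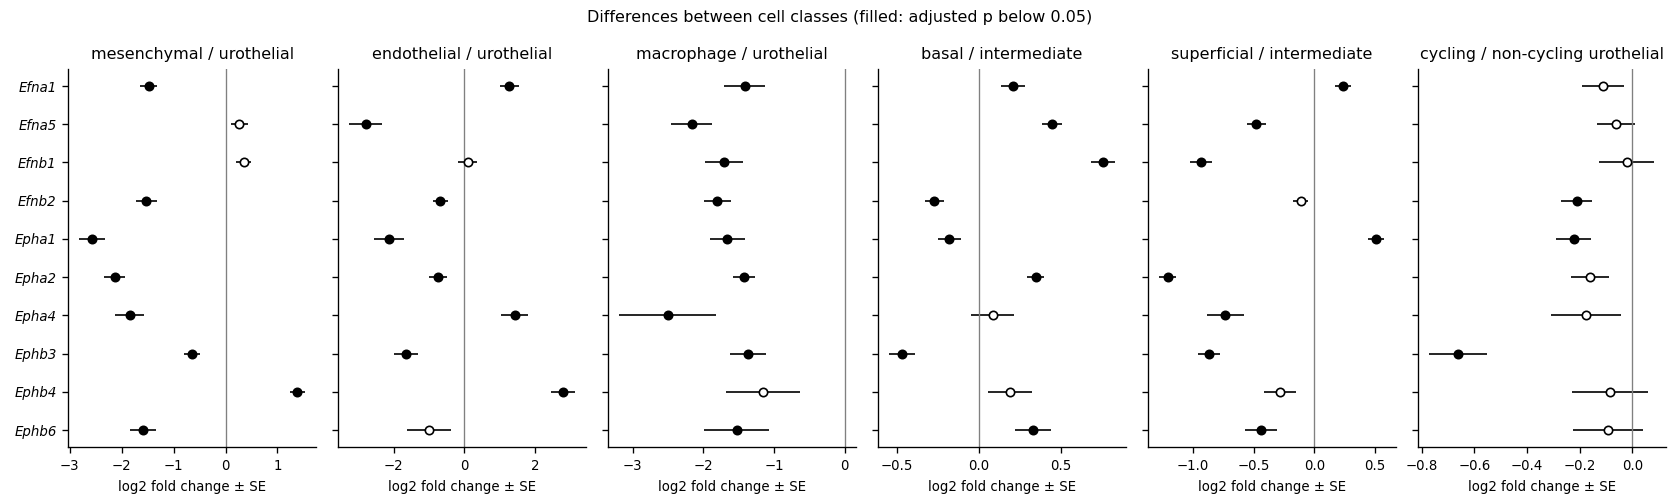
Fitted log2 difference of each gene between cell classes (horizontal axis, with standard errors as bars), in 6 comparisons, each with its own scale. Filled points passed an adjusted p of 0.05. Ephb4 lies to the right for mesenchymal and endothelial cells and Epha2 to the left for mesenchymal, endothelial and superficial cells and for macrophages.

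The members' levels outside the urothelium were set beside uroplakin RNA in the same cells, and its part in them was not tested. Epha1 and Epha2 in mesenchymal cells stood at a median of 20.3% and 19.8% of their urothelial level, close to the 15.5% of the uroplakins, and each was above the uroplakins' share in 5 of 6 libraries. Ephb3, at a median of 55.5%, and Efna1, at 35.8%, were above that share in 6 of 6 libraries. Chronic library 2 had both the highest uroplakin share, 26.9%, and the highest mesenchymal level of Efna1, Efnb2, Epha1, Epha2 and Epha4. The urothelial profile of the same library, scaled to match the class in summed uroplakin UMIs, was also subtracted, which was chosen after seeing the data. The same 8 genes were called, with Epha1 at -4.89 ± 0.63 and Epha2 at -3.46 ± 0.60 on the log2 scale. Subtraction can only move a gene that is lower in the mesenchyme further down, so it does not test the direction of those calls. In the other direction, collagens and decorin in urothelial cells stood at a median of 1.102% of their mesenchymal level and Ephb4 at 39.2%.

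**Figure D3:**
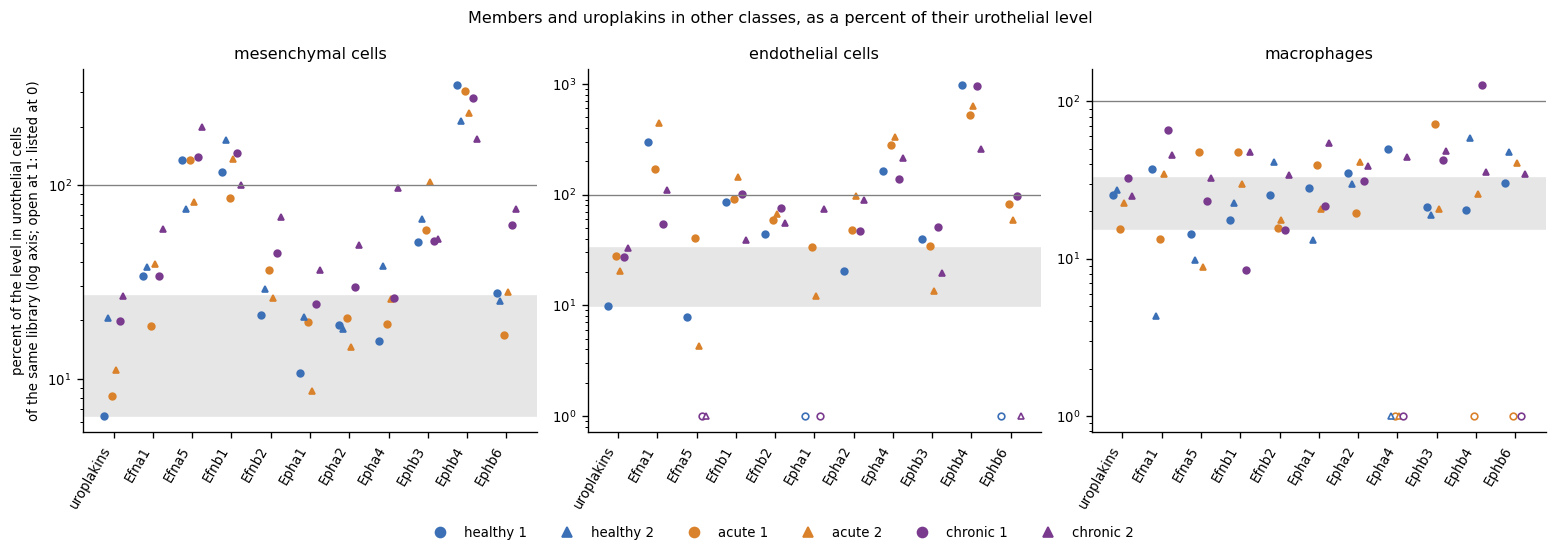
Level of each gene and of the summed uroplakins in mesenchymal cells, endothelial cells and macrophages as a percent of the urothelial level of the same library (vertical axis, logarithmic, with open symbols at 1 for values at 0). The grey band spans the uroplakins' values. Ephb4 in mesenchymal and endothelial cells lies above 100%, and the medians of Epha1 and Epha2 in mesenchymal cells, 20.3% and 19.8%, lie inside it.

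Endothelial cells had more of both Ephb4 and Efna1 than urothelial cells. Ephb4 was 6.92-fold higher (2.79 ± 0.33, adjusted p = 9.05e-08) in 5 of 5 libraries, Efna1 was 2.42-fold higher (1.27 ± 0.27, adjusted p = 0.000411) in 4 of 5, and Epha4 was 2.68-fold higher (1.42 ± 0.39, adjusted p = 0.00529) in 5 of 5. Efna5, Epha1 and Ephb3 were called lower, but they passed the filter on low counts only through the urothelial sums and rest on 8, 12 and 16 endothelial UMIs, so that no fold is given and their calls support nothing. In 4 of 5 libraries Efna5 was at or below the uroplakins' share of its urothelial level, and Epha1 was in 3 of 5. Efnb2 (-0.68 ± 0.21, adjusted p = 0.0124) and Epha2 (-0.76 ± 0.25, adjusted p = 0.0208) were lower in 5 of 5 libraries. Efnb1 (0.09 ± 0.27, adjusted p = 0.823) and Ephb6 (-1.01 ± 0.63, adjusted p = 0.224) did not pass. Thus 8 of 10 members were called, against 35.1% of all genes. The 8 include Efna5, Epha1 and Ephb3, so that this count is no support for a difference of the family. With urothelial RNA subtracted the same 8 were called, and the fitted level ratio moved by more than 1.5-fold only for Efna5, Epha1 and Ephb3. On the log2 scale Epha2 then stood at -1.23 ± 0.39, Efnb2 at -1.07 ± 0.33 and Efnb1 at -0.05 ± 0.40.

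Several of these endothelial calls rested on few cells. Epha4 missed the threshold without acute library 2 (adjusted p = 0.119), Efnb2 without healthy library 1 (0.117) or acute library 1 (0.0541) and in DESeq2 (0.0531), and Epha2 without healthy library 1 (0.272), acute library 1 (0.0689) or chronic library 1 (0.0624) and in DESeq2 (0.131). Naming cells by marker score in place of clusters put 349 to 1055 cells per library in the endothelial class, whose summed endothelial markers had a median of 249 CPM against 2377 in the cluster, and there Efna5 (0.23) and Epha2 (0.29) were higher, not lower, than in urothelial cells.

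Against mesenchymal cells, endothelial cells had 7.85-fold more Efna1 (2.97 ± 0.36, adjusted p = 2.03e-05), 2.91-fold more Ephb4 (1.54 ± 0.26, adjusted p = 0.000344) and 2.79-fold more Epha2 (1.478 ± 0.33, adjusted p = 0.0029), each in 5 of 5 libraries. Efnb2 was 2.00-fold higher in 4 of 5 libraries (adjusted p = 0.00657), a call that missed the threshold without acute library 2 (0.75, adjusted p = 0.0514). Efna5 was called lower (adjusted p = 0.000234), again through the sums of the other class and on 8 endothelial UMIs, and no fold is given. Of 7 members tested, 5 were called, against 36% of all genes, but Efna5 is among the 5, so that this count is no support. Epha1, Epha4 and Ephb6 were too low to be tested here. With cells named by marker score Ephb4 was lower than in mesenchymal cells (-0.78).

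In macrophages 9 of the 10 genes were called lower than in urothelial cells, against 49.8% of all genes called in either direction. Only 2 of the 10, Efnb2 and Epha2, passed the filter on low counts in macrophages alone, and the other 8 entered through the urothelial sums, where they are high, so that the count of 9 is no support for a difference of the family. Efnb2 was 3.49-fold lower (-1.80 ± 0.19, adjusted p = 4.51e-08) and Epha2 2.69-fold lower (-1.43 ± 0.16, adjusted p = 7.6e-08). Efna5 was at 42.1 ± 10.1 in urothelial cells and 9.98 ± 8.61 in macrophages, and Efnb2 at 104 ± 35.8 and 25.6 ± 12.8 (SD, n = 6). Ephb4, at 2.90 ± 2.35 in macrophages (SD, n = 6), did not pass (adjusted p = 0.0709). The share of the urothelial level was above that of the uroplakins in 2 to 5 of 6 libraries for each member, so that no member stood above it in every library. With urothelial RNA subtracted all 10 members were called and the differences were larger, among them -4.51 ± 0.57 for Efnb2 and -3.14 ± 0.38 for Epha2 on the log2 scale, so that the sizes above depend on whether it is subtracted. Naming cells by marker score left 3 of the 9 calls and gave small differences the other way for Efnb1 (0.14) and Epha2 (0.078). The macrophages so named, 260 to 701 per library, had a median of 5250 CPM of summed macrophage markers, against 23220 in the cluster.

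Within the mesenchyme, no member of the 8 tested passed between myofibroblasts and fibroblasts, against 18.7% of all genes called. In edgeR 0 were called, with 2 at an unadjusted p under 0.05, and in DESeq2 0. Efnb1 was lower in myofibroblasts of 6 of 6 libraries, at a log2 difference of -0.34 ± 0.13 (adjusted p = 0.0827), and Ephb3 was higher in 4 of 6, at 0.48 ± 0.19 (adjusted p = 0.0967).

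The question of how the family is layered in the urothelium was asked next. From basal through intermediate to superficial cells, the class means of Epha2, Efnb1 and Efna5 stepped down in every library, and Epha1 was highest in superficial cells of every library. The lower superficial level held in both superficial sub-clusters for Epha2, and in sub-cluster 4 but not in sub-cluster 10 for Efnb1 and Efna5. Epha2 averaged 175 ± 72.7 in basal, 148 ± 69.0 in intermediate and 60.7 ± 28.2 CPM in superficial cells (SD, n = 6), and the ranges of these layers overlapped. Within libraries, Epha2 was 264, 229 and 104 in healthy 1 and 77.0, 66.2 and 30.2 in acute 2, the library with the lowest values. Efnb1 averaged 63.8 ± 9.60, 40.6 ± 3.46 and 20.5 ± 3.91 in the 3 layers (SD, n = 6), and its ranges did not overlap. In basal cells it stood at 78.6 and 62.9 in the healthy, 69.5 and 51.3 in the acute and 64.0 and 56.6 in the chronic libraries, and in superficial cells at 24.5 and 23.5, 16.3 and 18.5, and 23.8 and 16.1. Epha1 averaged 36.1 ± 6.17, 43.6 ± 4.15 and 58.9 ± 5.59 in the same order (SD, n = 6).

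Set against intermediate cells of the same library, basal cells had 1.68-fold more Efnb1 (0.75 ± 0.07, adjusted p = 4.01e-08), 1.36-fold more Efna5 (0.45 ± 0.06, adjusted p = 3.61e-06) and 1.27-fold more Epha2 (0.34 ± 0.05, adjusted p = 1.37e-05), each in 6 of 6 libraries. They had 1.39-fold less Ephb3 (-0.47 ± 0.08, adjusted p = 4.5e-05) and 1.21-fold less Efnb2 (-0.27 ± 0.06, adjusted p = 0.000706), each in 6 of 6 libraries. Smaller differences of Efna1 (0.20 ± 0.07, adjusted p = 0.0279), Ephb6 (0.33 ± 0.11, adjusted p = 0.0163) and Epha1 (-0.18 ± 0.07, adjusted p = 0.0396) also passed, but each missed the threshold when certain libraries were left out. Efna1 missed it without acute 1 (0.111), chronic 1 (0.0531) or chronic 2 (0.106), Ephb6 without healthy 1 (0.0745) or chronic 2 (0.0563), and Epha1 without any library except chronic 2 (adjusted p between 0.0578 and 0.120). Ephb6 (0.0513) and Epha1 (0.0935) also missed it in DESeq2, and Ephb6 with layers named by whole sub-clusters (0.196). Epha4 (0.08 ± 0.13) and Ephb4 (0.19 ± 0.13) did not pass. Thus 8 of 10 members were called, against 45.3% of all genes.

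Superficial cells, sub-clusters 4 and 10 together, had 2.32-fold less Epha2 than intermediate cells (-1.21 ± 0.07, adjusted p = 6.82e-10), 1.91-fold less Efnb1 (-0.94 ± 0.09, adjusted p = 3.28e-07) and 1.83-fold less Ephb3 (-0.87 ± 0.09, adjusted p = 4.42e-07). Epha4 (-0.74 ± 0.15), Efna5 (-0.48 ± 0.08) and Ephb6 (-0.44 ± 0.13) were lower too, and all 6 of these genes were lower in 6 of 6 libraries. Epha1 was 1.43-fold higher in 6 of 6 libraries (0.51 ± 0.07, adjusted p = 6.61e-06) and Efna1 1.18-fold higher in 5 of 6 (0.23 ± 0.07, adjusted p = 0.00763). The Efna1 call missed the threshold without acute library 2 (0.0527) and under a stricter cell filter (0.0905). Efnb2 was lower in 6 of 6 libraries by little (-0.11 ± 0.06, adjusted p = 0.143), and Ephb4 (-0.28 ± 0.13, adjusted p = 0.0836) did not pass. The 8 members called stand against 51.3% of all genes. Ephb3 was highest in intermediate cells of every library among these 3 classes.

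The superficial result depended on which sub-cluster stood for the class, for all members but Epha1 and Epha2, which passed in both, and Efnb2, which passed in neither. Each was set alone against intermediate cells, and sub-cluster 4, with 206 to 735 cells per library, gave 8 members called, against 54.3% of all genes, while sub-cluster 10, with 121 to 427 cells per library, gave 3, against 32.5%. Epha2 was lower in both, at -1.37 ± 0.08 in sub-cluster 4 (adjusted p = 2e-10) and -0.76 ± 0.09 in sub-cluster 10 (adjusted p = 4.91e-10), and Epha1 was higher in both, at 0.52 ± 0.07 (adjusted p = 9.1e-06) and 0.46 ± 0.10 (adjusted p = 0.000208), each in 6 of 6 libraries.

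Of the other genes, Efnb1 (-1.28 ± 0.09), Ephb3 (-1.12 ± 0.08), Epha4 (-0.90 ± 0.16), Ephb6 (-0.77 ± 0.16), Efna5 (-0.63 ± 0.09) and Ephb4 (-0.56 ± 0.14) were lower in sub-cluster 4, each in 6 of 6 libraries, and Efna1 (0.16 ± 0.07, adjusted p = 0.0781) and Efnb2 (-0.13 ± 0.07, adjusted p = 0.108) did not pass. In sub-cluster 10 the same 6 genes did not pass, at -0.11 ± 0.11 for Efnb1 (adjusted p = 0.517), -0.26 ± 0.11 for Ephb3 (0.0571), -0.26 ± 0.24 for Epha4 (0.446), 0.37 ± 0.19 for Ephb6 (0.123), -0.04 ± 0.11 for Efna5 (0.84) and 0.47 ± 0.22 for Ephb4 (0.0997). Efnb2 did not pass there either (-0.03 ± 0.08, adjusted p = 0.82), and Efna1 was higher in 6 of 6 libraries (0.55 ± 0.11, adjusted p = 3.86e-05). Efnb1 stood at 15.5 ± 1.87 CPM in sub-cluster 4 and 36.7 ± 8.83 in sub-cluster 10 (SD, n = 6). The difference between the sub-clusters was not itself tested.

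Over all 14 urothelial sub-clusters, in plain CPM and with cycling cells included, sub-cluster 4 had the lowest mean of 7 members, Efna5, Efnb1, Epha2, Epha4, Ephb3, Ephb4 and Ephb6. Sub-cluster 10 had the highest mean of Efna1, Epha1 and Ephb4. Summed mural markers were also higher in the superficial class, at 243 to 437 CPM, than in intermediate cells, at 79.2 to 152, and their part in these values was not tested. On the same plain scale the highest mean of both Epha2, at 214 ± 92.5, and Ephb3, at 68.8 ± 37.2 (SD, n = 6), was in sub-cluster 2, an intermediate group led by Areg, Nr4a3 and Krt23. The highest mean of Efnb1, at 69.6 ± 11.2, was in sub-cluster 0, led by Klf4, Trf and Thbs1, in which most cells scored as basal.

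**Figure D4:**
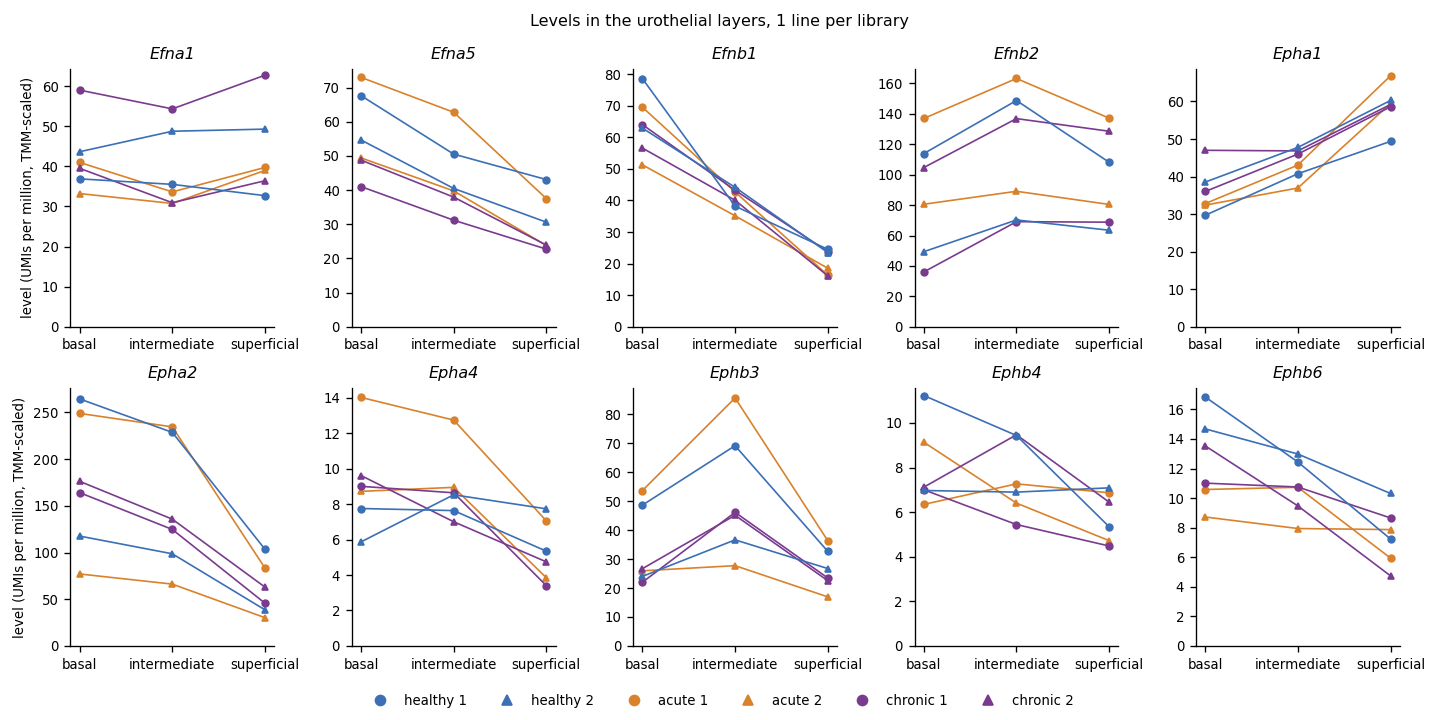
Level of each gene (vertical axis, CPM after TMM scaling, linear, starting at 0) in non-cycling basal, intermediate and superficial cells, with 1 line per library. The superficial class joins sub-clusters 4 and 10, which differed for Efnb1 and Efna5 in whether they passed against intermediate cells. Epha2, Efnb1 and Efna5 step down and Epha1 ends highest in all 6 libraries, while Ephb3 peaks in intermediate cells of all 6, and the lines of Epha2, Efnb2 and Ephb3 lie far apart.

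Cycling cells were called 1 by 1, where a score for S or for G2/M genes lay over 2 median absolute deviations above the median, which is a range and not a type. The sub-clusters led by proliferation genes, 12 and 13, held 49 and 9 cells of healthy library 2, in which 414 urothelial cells were called cycling, so that many called cells lay outside them. Cells so called had less of 3 members than the other urothelial cells, against 30% of all genes called in either direction. This count is no support for a difference of the family. Cells called cycling were not matched to the others for layer, and the part of layer in the differences below was not tested. Ephb3 was 1.58-fold lower (-0.66 ± 0.11, adjusted p = 0.000317), at 25.9 ± 7.61 against 45.3 ± 17.6 CPM (SD, n = 6), and it was lower in 6 of 6 libraries. Efnb2 (-0.21 ± 0.06, adjusted p = 0.0133) and Epha1 (-0.22 ± 0.07, adjusted p = 0.0194) were lower in 6 of 6 libraries, and the Epha1 call missed the threshold without chronic library 1 (0.0536). In plain CPM, Epha1 averaged 20.9 in sub-cluster 12 (12.95 to 31.25 over 6 libraries), the lowest of the 14, and 43.5 ± 7.04 in sub-cluster 13 (SD, n = 4), so the proliferation-led groups were not alike. They also differed in layer, since most cells scored as basal in sub-cluster 12 but not in sub-cluster 13. Naming cells by marker score left 1 of the 3 calls.

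Whether injury changed these genes was asked in 8 classes, by setting acute and chronic libraries against healthy ones and against each other. No member passed in any of the 24 comparisons, which share their control libraries. Over 192 tests of members, edgeR called 0 and DESeq2 0, with 6 and 4 at an unadjusted p under 0.05. In edgeR that is 3.12% of the members' tests, against 5.23% of the tests of all genes, and the genes called over all ranged from 0 (0% of those tested, in 19 comparisons) to 62 (1.09%, in chronic against healthy endothelial cells, where healthy library 2 had been left out, so that 1 library of 51 cells stood for the healthy endothelium and was assumed to vary like the other groups). Between these lay acute against healthy urothelial cells with 0.00723%, acute against healthy and chronic against healthy fibroblasts with 0.00902% each, and acute against healthy endothelial cells with 0.106%.

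In urothelial cells the members' log2 differences between conditions ran from -0.54 to 0.39. Epha1 averaged 43.8 ± 5.31 in the healthy, 41.8 ± 3.92 in the acute and 47.9 ± 1.17 in the chronic libraries (SD, n = 2), with acute against healthy at a log2 difference of -0.02 ± 0.19 and chronic against healthy at 0.14 ± 0.19. Ephb6 had 12.3 and 13.2 in the healthy libraries, 9.18 and 7.98 in the acute and 10.5 and 8.53 in the chronic ones. It did not pass at -0.52 ± 0.23 (adjusted p = 0.808) for acute and -0.41 ± 0.23 (adjusted p = 0.73) for chronic. Efna5 did not pass for chronic against healthy, at -0.53 ± 0.26 (adjusted p = 0.695). Epha2, with healthy libraries at 219 and 97.7 and acute ones at 181 and 58.8, had a standard error of 0.55 on the log2 scale.

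The 6 tests under 0.05 before adjustment did not pass it. Epha1 in myofibroblasts gave 2.44 ± 0.72 for chronic against acute (adjusted p = 0.53) and 1.89 ± 0.70 for chronic against healthy (adjusted p = 0.725), where chronic library 1 had 28.2 from 7 UMIs and chronic library 2 had 16.3 from 6 UMIs, against 3.52 to 8.68 in the other 4. Ephb6 gave 1.92 ± 0.75 for chronic against acute fibroblasts (adjusted p = 0.966) and -0.69 ± 0.30 for acute against healthy basal cells (adjusted p = 1.00). Efna5 gave -0.71 ± 0.28 for chronic against healthy superficial cells (adjusted p = 0.695), and Efna1 -1.38 ± 0.63 for chronic against acute endothelial cells (adjusted p = 0.482). Uroplakin RNA in mesenchymal cells stood at 19.9% and 26.9% of the urothelial level in the chronic libraries, 8.15% and 11.15% in the acute and 6.44% and 20.5% in the healthy ones, and its part in the myofibroblast and fibroblast values was not tested.

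Whether the effect of injury differed between the mesenchyme and the urothelium was tested with an interaction term. Of 20 tests none passed in edgeR, with 3 at an unadjusted p under 0.05 and 0 called by DESeq2, against 0% of all genes called for either injury. The share of all genes under the unadjusted cut is not given here, so that the count of 3 is no support. The 3 were Ephb6 (1.30 ± 0.50), Efnb2 (1.14 ± 0.33) and Epha2 (1.00 ± 0.32), in which chronic against healthy was higher in the mesenchyme than in the urothelium, each with an adjusted p of 0.662. The part of the uroplakin RNA in mesenchymal cells, given above by library, was not tested for these 3 either.

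**Figure D5:**
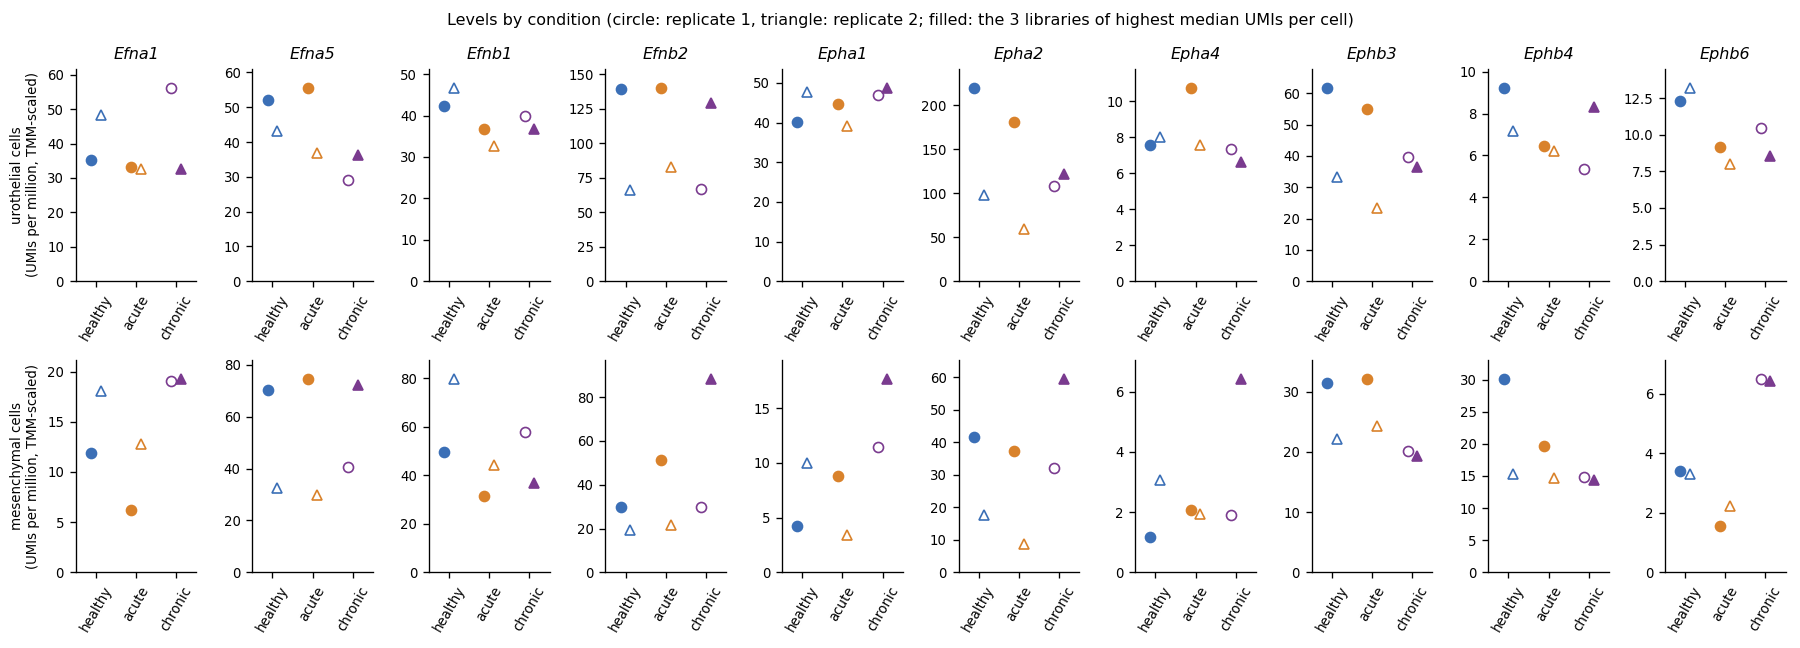
Level of each gene in urothelial (top) and mesenchymal cells (bottom) of the 6 libraries (vertical axis, CPM after TMM scaling, linear, starting at 0), by condition. Filled symbols mark healthy 1, acute 1 and chronic 2, the libraries of highest median UMIs per cell, and in both cell types all 3 lie above the open symbols for Efnb2 and Epha2.

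Libraries of the same condition differed for some members. Epha2 in urothelial cells ranged 3.73-fold over the 6 libraries and differed 2.24-fold between the healthy, 3.08-fold between the acute and 1.12-fold between the chronic libraries. Efnb2 ranged 2.11-fold, and differed 2.11-fold, 1.68-fold and 1.93-fold within the same conditions. Healthy 1, acute 1 and chronic 2, which had the highest median UMIs per cell (9138, 9041 and 8665, against 5530 to 7237), had the 3 highest urothelial levels of both genes. Of the 10 members, 2 had this order in urothelial cells, against 10.4% of all genes. In mesenchymal cells 3 of 10 had it (Efna5, Efnb2 and Epha2), against 9.14% of all genes, in basal cells 3 of 10 (Efnb2, Epha2 and Ephb3), against 12.6%, and in intermediate cells 3 of 10 (Efnb2, Epha2 and Ephb4), against 13.4%. In fibroblasts 2 of 9 had it (Efna5 and Efnb2), against 6.92%. In superficial cells Efnb2 and Epha2 had it, against 9.27% of all genes, in myofibroblasts 4 of 8 members (Efna5, Efnb2, Epha2 and Ephb4), against 9.81%, and in macrophages Epha2 of 2 members tested, against 7.19%. The reverse order, with these 3 libraries lowest, was seen in no member in urothelial (11.8% of all genes), mesenchymal (6.9%), basal (12.4%) or intermediate cells (13.4%), in myofibroblasts (7.82%) or in macrophages (9.51%), and in Ephb6 in superficial cells (9.83%) and Efnb1 in fibroblasts (6.24%). Depth and other differences between libraries cannot be told apart here.

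The rest of the family was given by a list of 22 ephrin and Eph genes, 16 of which are listed in all tables. Epha3, absent from the urothelium but for 44 UMIs, was high in myofibroblasts, at 31.6 ± 6.25 CPM (SD, n = 6), where fibroblasts had 4.74 ± 2.91 (log2 difference 2.47 ± 0.26, adjusted p = 6.68e-06). Ephb2, another EphB receptor, had the layer pattern of Epha2, with 1.07 ± 0.12 more on the log2 scale in basal than intermediate cells and -1.38 ± 0.15 in superficial cells, sub-clusters 4 and 10 together. Epha7 ran in the opposite order, at -0.77 ± 0.19 in basal and 0.82 ± 0.14 in superficial cells (again joined) against intermediate cells. It was 1.21 ± 0.17 higher in mesenchymal than urothelial cells. Efna2 (2.93 ± 0.24) and Efna4 (1.80 ± 0.21) were higher in mesenchymal than in urothelial cells.

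Of 49 genes that act downstream or on the ligands (among them Src family kinases, adaptors, exchange factors, phosphatases, PDZ partners and sheddases), 48 are listed. In superficial against intermediate cells 5 rose and 23 fell of 43 tested, against 51.3% of all genes called, with a median log2 difference of -0.16 against 0.00 over all genes. The lowest adjusted p were those of Ptpn1, a phosphatase that acts on receptor kinases (-0.76 ± 0.07), the kinase Pak1 (-0.75 ± 0.07), and the exchange factors Vav3 (-2.19 ± 0.22) and Tiam1 (-0.92 ± 0.09). In basal against intermediate cells 11 rose and 9 fell of 42, against 45.3% of all genes, with Vav3 (1.54 ± 0.10), the protease Mmp14 (0.94 ± 0.08) and Ptpn1 (0.63 ± 0.05) higher and Vav2 (-0.77 ± 0.08) lower.

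Between mesenchymal and urothelial cells 12 rose and 22 fell of 46, against 69.8% of all genes, and the adaptor Grb10 (5.45 ± 0.21), the Src family kinase Fyn (5.21 ± 0.28) and Mmp14 (3.27 ± 0.20) were among the higher. Between endothelial and urothelial cells 13 rose and 9 fell of 45, against 35.1% of all genes, with the endothelial exchange factor Arhgef15 (8.66 ± 0.52), Grb10 (5.80 ± 0.46) and Fyn (5.79 ± 0.42) higher and Ptpn13 (-2.20 ± 0.30), a phosphatase that binds B-type ephrins, lower. Endothelial against mesenchymal cells gave 9 and 1 of 31, against 36%, with Arhgef15 (6.09 ± 0.34), Yes1 (2.28 ± 0.28) and the sheddase Adam10 (1.57 ± 0.24) higher and Mmp14 (-2.90 ± 0.29) lower. Macrophages against urothelial cells gave 18 and 12 of 44, against 49.8%, led by the Src family kinase Lyn (3.61 ± 0.16), the phosphatase Ptpro (8.98 ± 0.44) and the adaptor Grb2 (1.57 ± 0.12), with Wasl (-1.54 ± 0.12) lower. In myofibroblasts against fibroblasts 4 rose and 6 fell of 35, against 18.7%, with Rgs3 (0.93 ± 0.12) higher and Grb10 (-2.07 ± 0.24) and Rac1 (-0.57 ± 0.10) lower. In urothelial cells called cycling 2 rose and 12 fell of 44, against 30%, with Acp1 (0.46 ± 0.08) higher and Vav2 (-0.52 ± 0.08), Yes1 (-0.45 ± 0.09) and Ptpn13 (-0.31 ± 0.06) lower. These counts describe the list and were not tested against other genes. Genes that passed the filter on low counts only through 1 of the classes compared were not set apart in them. The counts are therefore no support for a difference of the list, and the largest differences can rest on few UMIs in the lower class. No gene of the list was called in any of the 24 comparisons of conditions.

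The genes whose levels ran most like each member were found by Pearson's correlation of log2 levels over 52 sums of 10 classes, among 9165 genes, as a description, since sums share libraries, depth and RNA carried between classes. For the epithelial receptors they were Ube4a (0.92) and Plekhg6 (0.91) for Epha1 and Slk (0.88) and Noct (0.87) for Epha2, and for Efnb2 they were Prkci (0.88) and Cxadr (0.87). For Ephb4 they were Dlc1 (0.89) and Nfib (0.86). For Efna1 the nearest were Arhgef7 (0.78) and another member, Epha4 (0.75). For Efna5 they were Igsf3 (0.83) and Rras2 (0.82), for Efnb1 Nedd4 (0.78) and Cuedc1 (0.77), for Epha4 Hoxd8 (0.85) and Mast4 (0.82), for Ephb3 Tmem127 (0.80) and Dgcr2 (0.74), and for Ephb6 Birc6 (0.78) and Bcar3 (0.76).

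Some counts could include reads of overlapping genes. Epha1 overlaps Zyx and 2010310C07Rik and Ephb4 overlaps Zan on the opposite strand, Efnb2 overlaps 3 other annotated genes on its own strand and Epha4 a microRNA gene, and whether the counting used strand is not given in the sources used here. The other 6 members overlap no annotated gene.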

How the data were processed

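Single-cell suspensions of bladder mucosa were sequenced with a droplet-based 3' method in 6 libraries, and the submitters' processing notes name Cell Ranger and the build mm10. The deposited tables hold raw UMI counts per gene and cell, which the authors made by alignment and barcode counting, 1 table per library. The family and list genes were chosen with earlier results of these data known.

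Cells with under 500 genes or over 10% mitochondrial UMIs were left out. Scrublet's automatic threshold called 1 to 6 doublets per library and was not used, so the highest scores were removed at 0.8% per 1000 cells (4.28% to 11.1% per library), with 1 doublet-rich cluster. Libraries were integrated with Seurat 5.3.0 on 3000 features, from which 64 family and pathway genes were left out, and clustered with scanpy 1.11.5. Clusters were named from marker lists, and the naming rule was changed after the clusters were seen. Counts were summed per library and class (at least 20 cells), so cells were never replicates. Sums were tested with edgeR 4.0.16 (quasi-likelihood, TMM, filterByExpr, Benjamini-Hochberg over all genes tested, adjusted p under 0.05), with library as a block between classes and condition as the only term between conditions. DESeq2 1.42.0 was an alternative. The scripts were tested on simulated data.

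All members are named. Of the other family and pathway genes, up to 4 per comparison with the smallest adjusted p are named, and per member the 2 genes with the highest Pearson correlation of log2(level + 1), among genes with a mean of at least 20 CPM in some class. Other family genes with layer or mesenchymal differences (Ephb2, Epha7, Efna2 and Efna4) were chosen after their values were seen. The limit beside a count of 0 covers counting error only.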

Additional observations from a re-analysis of the deposited data

How the results depend on the processing

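Counts of members called stayed within 1.5 times of the reported count under another normalization, DESeq2, no filter on low counts, doublets kept, a stricter cell filter, each library left out in turn and subtracted urothelial RNA (chosen after seeing the data, as was plain CPM, and able only to move genes lower than in urothelial cells further down). The exceptions were naming each cell by its marker score, which gave 3 members called in macrophages against urothelial cells and 1 in cycling against non-cycling cells, and taking sub-cluster 10 alone as the superficial cells (chosen after seeing the data), which gave 3 against intermediate cells and turned Ephb6 to 0.37. Marker naming also turned 6 differences of single members. They became 0.25 for Efna1 in chronic against acute endothelial cells, 0.23 for Efna5 and 0.29 for Epha2 in endothelial against urothelial cells, 0.14 for Efnb1 and 0.078 for Epha2 in macrophages against urothelial cells, and -0.78 for Ephb4 in endothelial against mesenchymal cells. The classes so named held 349 to 1055 endothelial cells and 260 to 701 macrophages per library, with median marker sums of 249 and 5250 CPM, against 2377 and 23220 before. The differences followed were those called and the 6 between conditions with an unadjusted p under 0.05. Over all pairs of such a difference and a setting, 40 kept their direction and missed the threshold, 19 of them with a library left out. A difference can count under several settings. Of the mean levels, 26 moved by more than their SD between libraries, 18 of them under marker naming, and 164 did not. Without healthy library 1 no endothelial comparison of conditions was fitted, since the fit needs a library of every condition.

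Replicate numbers did not pair the libraries, with correlations of same-numbered libraries' deviations between -0.30 and 0.14 in urothelial and -0.18 and 0.10 in mesenchymal cells. With the replicate number as a block, 0 members were called in each of the 24 comparisons of conditions, and over all genes chronic against healthy endothelial cells went from 62 to 37 called, chronic against acute endothelial cells from 0 to 4, and acute and chronic against healthy myofibroblasts from 0 to 2 and 1.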
